A study of Rattus norvegicus with 21 samples.

Results

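The collagen genes of the rat dentate gyrus are described here from Affymetrix Gene ST arrays of 18 animals. Members were the genes whose probe sets carried exactly 1 gene symbol of the form Col, number, a, number. Such probe sets numbered 27, and they stood for 25 collagen genes among the 14506 genes with a probe set of 1 symbol. Of the 25, 10 form fibrils, 3 are type IV chains of basement membranes and 12 belong to other collagen types. All 25 passed the filter on low signal, so they are among the 11940 genes tested. Col4a2, Col6a1, Col6a2, Col6a3, Col8a2, Col9a3, Col15a1, Col18a1, Col19a1 and Col25a1 had no such probe set and are not analysed here. Where a gene had several probe sets, the 1 with the highest mean was used.

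The animals were wild type male Wistar rats, 2 months old, 3 in each of 6 groups. In 4 of the groups, animals were exposed to unpredictable chronic mild stress for 6 weeks and had an antidepressant injected daily into the peritoneum for the final 2 weeks. The drugs were fluoxetine (10 mg/kg, in water), imipramine (10 mg/kg, in saline), tianeptine (10 mg/kg, in saline) and agomelatine (40 mg/kg, in hydroxyethylcellulose). The fifth group had the 6 weeks of stress with no drug, and the sixth was untreated (control). The labels do not say whether animals without a drug were injected, so drug and injection cannot be told apart. Animals are named by group and replicate number, as agomelatine 1. Each control animal was hybridised to a first and a repeat array, and the 2 arrays were averaged per animal, giving 18 values per gene from 21 arrays. All levels below are log2 values made with RMA (background correction, quantile normalisation between arrays, summary over the probes of a probe set). A difference of 1 is a 2-fold change. Probe sets differ in their response to the same amount of RNA, so levels of different genes are not compared.

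Collagens are triple-helical proteins of the extracellular matrix. In the brain the fibrillar types I and III are made mainly by fibroblasts of the meninges and of the space around larger vessels, whereas type IV chains are laid down by endothelial cells and pericytes in the basement membrane of vessels. Neurons and glia make little fibrillar collagen, so these genes are often read as a measure of meninges and vessels in a dissected piece of brain. Types II, IX, X and XI are best known from cartilage.

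Some libraries stood apart. Agomelatine 1 and stress 1 carried far more signal of meningeal and choroid plexus markers than the other 16 animals, and the agomelatine group as a whole carried more oligodendrocyte and less granule neuron signal. The values are given below beside the results that they touch. Array medians ran from 7.99 to 8.10.

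Collagen levels differed little between animals. The spread from the lowest to the highest of the 18 animals was 0.27 to 0.59 log2 units (median 0.41) for 24 of the 25 genes, and 1.33 for Col8a1. The median SD between animals of a group was 0.105 for the collagens and 0.103 for all tested genes. Col4a4 had the smallest such SD (0.059) and Col8a1 the largest (0.234). Of the 25 genes, 12 had their highest value in agomelatine 2, and 4 each in control 1 and control 3. The lowest value fell in agomelatine 1 for 7 genes and in agomelatine 3 and stress 3 for 4 genes each. In the heat map of the 25 genes the columns of these animals lie mostly, but not wholly, on one side of the gene means.

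**Figure D1:**
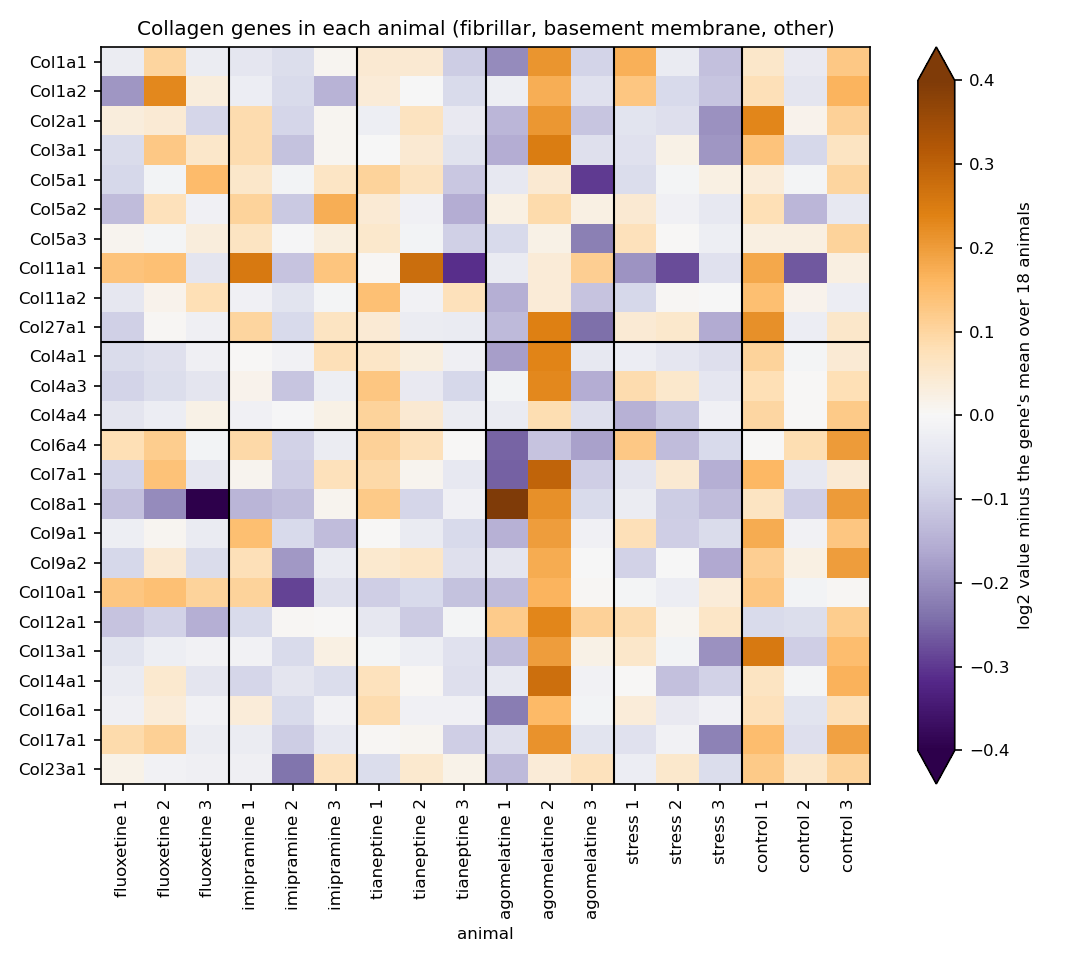
Each cell is the log2 value of a collagen gene in 1 of the 18 animals minus the mean of that gene over the animals, with genes down the page (10 fibrillar, 3 basement membrane, 12 other, divided by lines) and animals across in their 6 groups. Agomelatine 2, control 1 and control 3 are mostly above the mean, and Col8a1 in agomelatine 1, with a log2 value of 7.85, lies beyond the colour scale.

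Among the fibrillar collagens, Col1a2 encodes the alpha-2 chain of type I collagen. It read 8.50, 8.92 and 8.72 in the fluoxetine animals, 8.67, 8.62 and 8.55 with imipramine, 8.73, 8.69 and 8.62 with tianeptine, 8.67, 8.87 and 8.63 with agomelatine, 8.82, 8.61 and 8.58 with stress alone, and 8.77, 8.64 and 8.86 in controls. No drug group was separated from stress alone or from control, and stress alone was not separated from control. The difference of stress from control was -0.09 ± 0.10 (SE) and that of agomelatine from stress 0.05 ± 0.10 (limma adjusted p 0.90 and 0.78). Group means ran only from 8.61 ± 0.06 with imipramine to 8.76 ± 0.11 in controls (SD, n = 3 each).

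The promoter of Col1a2 is shown because this gene serves below as the fibrillar representative. The sequence spans 250 bases before and 50 after the start of the RefSeq gene (build GRCr8), and capitals mark motif matches. The motifs searched on both strands were the CCAAT box (CCAAT), the TATA box (TATAAA) and the GC box (GGGCGG). Col1a2 had a CCAAT box on the reverse strand at -221 and a TATA box at -170 bases from the RefSeq start.
Col1a2 promoter, chr4:33518307-33518606, plus strand: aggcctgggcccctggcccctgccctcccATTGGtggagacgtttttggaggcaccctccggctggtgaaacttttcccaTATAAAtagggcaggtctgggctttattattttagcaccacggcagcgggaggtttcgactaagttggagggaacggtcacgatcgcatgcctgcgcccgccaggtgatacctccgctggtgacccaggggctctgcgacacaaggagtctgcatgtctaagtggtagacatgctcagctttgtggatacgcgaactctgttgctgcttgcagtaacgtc
The share of all 33469 RefSeq promoters with each motif was 37.5% for the CCAAT box, 14.2% for the TATA box and 33.1% for the GC box. Of the 25 collagens 20 had a promoter entry, and of these 7, 4 and 11 held the CCAAT, TATA and GC box. The median GC content was 62.3% for these 20 and 51.7% for all promoters. A match of letters is a description of the window and not evidence of binding.

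Col1a1, the alpha-1 chain of type I collagen, read 8.52, 8.93 and 8.63 with agomelatine, 8.89, 8.69 and 8.60 with stress alone and 8.77, 8.69 and 8.85 in controls. Col3a1, the chain of type III collagen found beside type I in soft tissue, read 7.59, 7.99 and 7.68 with agomelatine, 7.68, 7.76 and 7.55 with stress alone and 7.88, 7.66 and 7.81 in controls. For both genes the groups overlapped and agomelatine 2 was the highest of the 18 animals. Col1a1 was lowest in agomelatine 1, and Col3a1 was lowest in stress 3.

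Col11a1, a chain of type XI collagen that nucleates fibrils in cartilage, had the largest range among the 24 genes other than Col8a1. It read 8.41, 8.42 and 8.23 with fluoxetine, 8.53, 8.16 and 8.41 with imipramine, and 8.28, 8.55 and 7.96 with tianeptine. With agomelatine it read 8.24, 8.31 and 8.39, with stress alone 8.08, 7.995 and 8.22, and in controls 8.46, 8.01 and 8.30. The stressed animals lay below all fluoxetine and all agomelatine animals and overlapped the controls. Differences from stress were 0.25 ± 0.13 with fluoxetine, 0.27 ± 0.13 with imipramine and 0.22 ± 0.13 with agomelatine, and none passed the test (limma adjusted p 0.96, 0.54 and 0.33).

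Col2a1, the chain of type II collagen, had the lowest difference of any collagen in the comparison of stress with control. It read 8.18, 8.17 and 8.04 with stress alone and 8.46, 8.24 and 8.34 in controls, without overlap. The difference was -0.22 ± 0.09, with a limma adjusted p of 0.82. Col5a3, a minor chain of type V collagen, read 8.09, 8.19 and 7.96 with agomelatine and 8.20, 8.20 and 8.28 in controls, again without overlap, with a difference of -0.15 ± 0.07 (limma adjusted p 0.20). Col5a1 and Col5a2, chains of the type V collagen that sets the diameter of type I fibrils, ran from 7.77 to 8.22 and from 8.06 to 8.39 over the 18 animals. Col11a2, another chain of type XI collagen, ran from 8.44 to 8.74 and differed from stress by 0.09 ± 0.07 with tianeptine (limma adjusted p 0.94). Col27a1, a fibrillar collagen of cartilage, ran from 8.33 to 8.81. The lowest mean of a fibrillar probe set was that of Col3a1 (7.74) and the highest that of Col1a1 (8.72).

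Among the basement membrane collagens, Col4a1 encodes a chain of the type IV network found in the basement membrane of brain vessels. It read 7.98, 7.99 and 8.04 with fluoxetine, 8.06, 8.04 and 8.13 with imipramine, and 8.11, 8.09 and 8.04 with tianeptine. With agomelatine it read 7.88, 8.29 and 8.02, with stress alone 8.03, 8.01 and 7.99, and in controls 8.16, 8.05 and 8.10. The 2 extremes of all 18 animals were both in the agomelatine group. Stress alone lay just below control without overlap, by -0.09 ± 0.08, a difference that did not pass the test (limma adjusted p 0.88).

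Col4a3 and Col4a4, chains of the type IV network best known from the kidney glomerulus, lie head to head on rat chromosome 9 with start sites 413 bases apart. Their promoters are shown because the genes share this stretch. The 2 windows overlap by 88 bases, and of the motifs only a GC box was found, in the window of Col4a3.
Col4a3 promoter, chr9:91323740-91324039, plus strand: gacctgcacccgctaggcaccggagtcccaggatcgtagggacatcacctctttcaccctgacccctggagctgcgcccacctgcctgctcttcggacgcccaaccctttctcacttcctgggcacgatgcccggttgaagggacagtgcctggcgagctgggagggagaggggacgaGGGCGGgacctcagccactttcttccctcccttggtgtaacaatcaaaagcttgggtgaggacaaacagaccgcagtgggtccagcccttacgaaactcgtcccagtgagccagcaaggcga
Col4a4 promoter, chr9:91323528-91323827, minus strand: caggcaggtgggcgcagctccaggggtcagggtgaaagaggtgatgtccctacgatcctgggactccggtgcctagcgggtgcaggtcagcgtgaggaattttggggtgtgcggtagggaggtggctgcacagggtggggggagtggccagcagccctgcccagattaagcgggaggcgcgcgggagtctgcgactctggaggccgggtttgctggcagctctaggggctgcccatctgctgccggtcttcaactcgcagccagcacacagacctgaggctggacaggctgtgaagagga
Col4a3 read 7.72, 7.96 and 7.58 with agomelatine, 7.81, 7.78 and 7.68 with stress alone and 7.81, 7.73 and 7.81 in controls. Col4a4 read 7.61, 7.65 and 7.74 with stress alone, below all 3 controls at 7.86, 7.76 and 7.88. With tianeptine Col4a4 read 7.87, 7.81 and 7.73, and its difference from stress was 0.13 ± 0.07 (limma adjusted p 0.94). Between stress and control the difference of Col4a4 was -0.17 ± 0.07, with a limma adjusted p of 0.82, against -0.02 for Col4a3. After group means were removed, the correlation between both genes over the 18 animals was 0.58, near the median of 0.51 over all 300 pairs of collagens.

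Among the other collagens, Col8a1 stood apart. It encodes a chain of type VIII collagen, a short-chain network collagen of vessel walls and of the cornea. Its levels were 6.81, 6.73 and 6.53 with fluoxetine, 6.79, 6.80 and 6.94 with imipramine, and 7.05, 6.85 and 6.91 with tianeptine. With agomelatine they were 7.85, 7.15 and 6.85, with stress alone 6.90, 6.83 and 6.80, and in controls 6.996, 6.83 and 7.13. Agomelatine 1 alone exceeded every other animal, and agomelatine 3 lay inside the range of stress alone. The agomelatine group averaged 7.29 ± 0.51 and the stress group 6.84 ± 0.05 (SD, n = 3 each). The difference of 0.44 ± 0.16, a 1.36-fold higher mean, did not pass the test (limma adjusted p 0.095), and without agomelatine 1 it was 0.16 (limma adjusted p 0.39). Without agomelatine 3 it was 0.66 (limma adjusted p 0.011). Against control the difference was 0.30 ± 0.16 (limma adjusted p 0.28). With fluoxetine Col8a1 lay below all controls, by -0.30 ± 0.16 (limma adjusted p 0.99).

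The promoter of Col8a1 is shown because this gene varied most of the collagens. It held 4 GC boxes, all on the reverse strand, and neither of the other motifs.
Col8a1 promoter, chr11:56246532-56246831, plus strand: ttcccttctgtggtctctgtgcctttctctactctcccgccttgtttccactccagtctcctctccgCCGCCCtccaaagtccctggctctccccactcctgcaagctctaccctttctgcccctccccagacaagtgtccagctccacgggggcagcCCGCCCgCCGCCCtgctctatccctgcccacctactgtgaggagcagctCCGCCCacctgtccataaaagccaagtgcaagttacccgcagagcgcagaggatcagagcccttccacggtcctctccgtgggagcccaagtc

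Col6a4, a chain of type VI collagen, was the 1 collagen that changed in any of the 9 comparisons. It fell with agomelatine against control. Its levels were 7.63, 7.77 and 7.71 with agomelatine, 8.01, 7.75 and 7.80 with stress alone and 7.89, 7.96 and 8.08 in controls. All agomelatine animals lay below all controls (12.8% of all genes did so), and agomelatine 2 lay above stress 2. The difference from control was -0.28 ± 0.08 (0.825-fold, limma adjusted p 0.040), and 3.88% of all tested genes were called lower in this comparison. It passed in 8 of 21 alternative settings, with adjusted p from 0.029 to 0.32. With only the first arrays of the controls it was -0.22 (adjusted p 0.085) and without control 3 it was -0.22 (adjusted p 0.15). When all probe sets were tested, the other probe sets of Col6a4 gave -0.16 and 0.04 in the same comparison and did not pass (limma adjusted p 0.30 and 0.89).

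Col12a1, which associates with fibrils of type I collagen, read 7.66, 7.68 and 7.62 with fluoxetine, 7.89, 8.01 and 7.88 with agomelatine, 7.86, 7.78 and 7.83 with stress alone and 7.70, 7.71 and 7.89 in controls. Fluoxetine animals lay below all stressed animals, by -0.17 ± 0.07, and below all controls, by -0.11 ± 0.07 (limma adjusted p 0.93 and 0.99). Agomelatine animals lay above all stressed animals, by 0.10 ± 0.07 (limma adjusted p 0.37), and differed from controls by 0.16 ± 0.07 (limma adjusted p 0.15). When only the first control arrays were used, the difference of agomelatine from control was 0.25 and passed (limma adjusted p 0.017), and with only the repeat arrays it was 0.08 (limma adjusted p 0.57).

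The remaining genes of this class did not pass the test in any comparison. Col9a2, a fibril-associated collagen of cartilage, read 8.25, 8.34 and 8.18 with stress alone and 8.45, 8.36 and 8.54 in controls, without overlap, and the difference was -0.20 ± 0.08 (limma adjusted p 0.82). Col17a1, a transmembrane collagen of epithelial hemidesmosomes, averaged 0.15 more with fluoxetine than with stress alone. Col14a1, another fibril-associated collagen, averaged 0.15 more with agomelatine than with stress alone. Col23a1, a transmembrane collagen, differed by -0.16 from control with imipramine. Col10a1, known from growth plate cartilage, differed by -0.14 from control with tianeptine, and Col9a1 and Col13a1 each by -0.13. Col7a1, the collagen of anchoring fibrils in skin, ran from 7.82 in agomelatine 1 to 8.37 in agomelatine 2, and the fibril-associated Col16a1 from 7.72 to 8.10 in the same animals. The lowest mean of a probe set in this class was that of Col8a1 (6.93) and the highest that of Col23a1 (8.66).

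Across the groups, the test of 25 collagens gave calls (limma, Benjamini-Hochberg adjusted p under 0.05 over all 11940 genes) in 1 of 9 comparisons. Beside the differences of single genes, the direction of the whole class is given with that of all tested genes. For agomelatine against stress, 0 of 25 collagens passed, where 9.54% of all tested genes did. At an unadjusted p under 0.05 there was 1 collagen, beside 25.5% of all genes. Differences were above 0 for 17 of 25 collagens, where 44.4% of all genes lay above 0, and the median was 0.05 for the collagens and -0.02 over all genes. The groups did not overlap for 2 collagens (Col11a1 and Col12a1), both higher with agomelatine, beside 8.99% of all genes in that direction. The median was 0.01 for the 10 fibrillar, 0.05 for the 3 basement membrane and 0.06 for the 12 other collagens. It rested on agomelatine 2, since without that animal 17 of 25 differences were below 0 and the median was -0.03, while without agomelatine 1 it was 0.10.

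With fluoxetine, imipramine and tianeptine against stress, 0 of 25 collagens passed, and 0% of all genes passed in each of the 3 comparisons. At an unadjusted p under 0.05 there were 1, 0 and 0 collagens, beside 5.18%, 9.41% and 5.18% of all genes. In each of the 3 comparisons 18 of 25 collagens were above 0, with medians of 0.04, 0.02 and 0.04, where 47.5%, 42.4% and 44.7% of all genes lay above 0. These 3 comparisons and that of agomelatine share the stressed animals. These directions depended in part on stress 3, since without it the medians were 0.00, -0.01 and 0.02, with 11, 17 and 11 of 25 collagens below 0. The groups did not overlap for 4 collagens with fluoxetine (2 higher and 2 lower), 2 with imipramine and 4 with tianeptine, beside 11.3%, 19.0% and 11.4% of all genes.

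For stress against control, 0 of 25 collagens passed and 0% of all genes did. At an unadjusted p under 0.05 there were 4 collagens (Col2a1, Col4a4, Col9a2 and Col17a1, all lower with stress) and 5.45% of all genes. Differences were below 0 for 23 of 25 collagens, where 42.8% of all genes lay below 0. The median was -0.11 for the collagens and 0.02 for all genes. By class it was -0.08 for the fibrillar, -0.09 for the basement membrane and -0.13 for the other collagens. The groups did not overlap for 5 collagens, all lower with stress, beside 6.05% of all genes in that direction.

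The drug groups against control gave the same sign, and all these comparisons share the control animals. Differences were below 0 for 22 collagens with fluoxetine, 23 with imipramine, 23 with tianeptine and 21 with agomelatine, with medians of -0.05, -0.08, -0.05 and -0.07. Over all genes, 45.7%, 54.8%, 47.2% and 54.8% lay below 0. Apart from Col6a4 with agomelatine, 0 collagens passed, beside 0%, 0.0168%, 0% and 8.58% of all genes. At an unadjusted p under 0.05 there were 0, 0, 0 and 3 collagens, beside 4.66%, 7.72%, 3.88% and 24.2% of all genes. In the F test over the 6 groups 0 of 25 collagens passed and 5.73% of all genes did. At an unadjusted p under 0.05 there were 3 collagens (Col12a1, Col6a4 and Col8a1, adjusted p 0.13, 0.19 and 0.19), beside 22.6% of all genes.

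**Figure D2:**
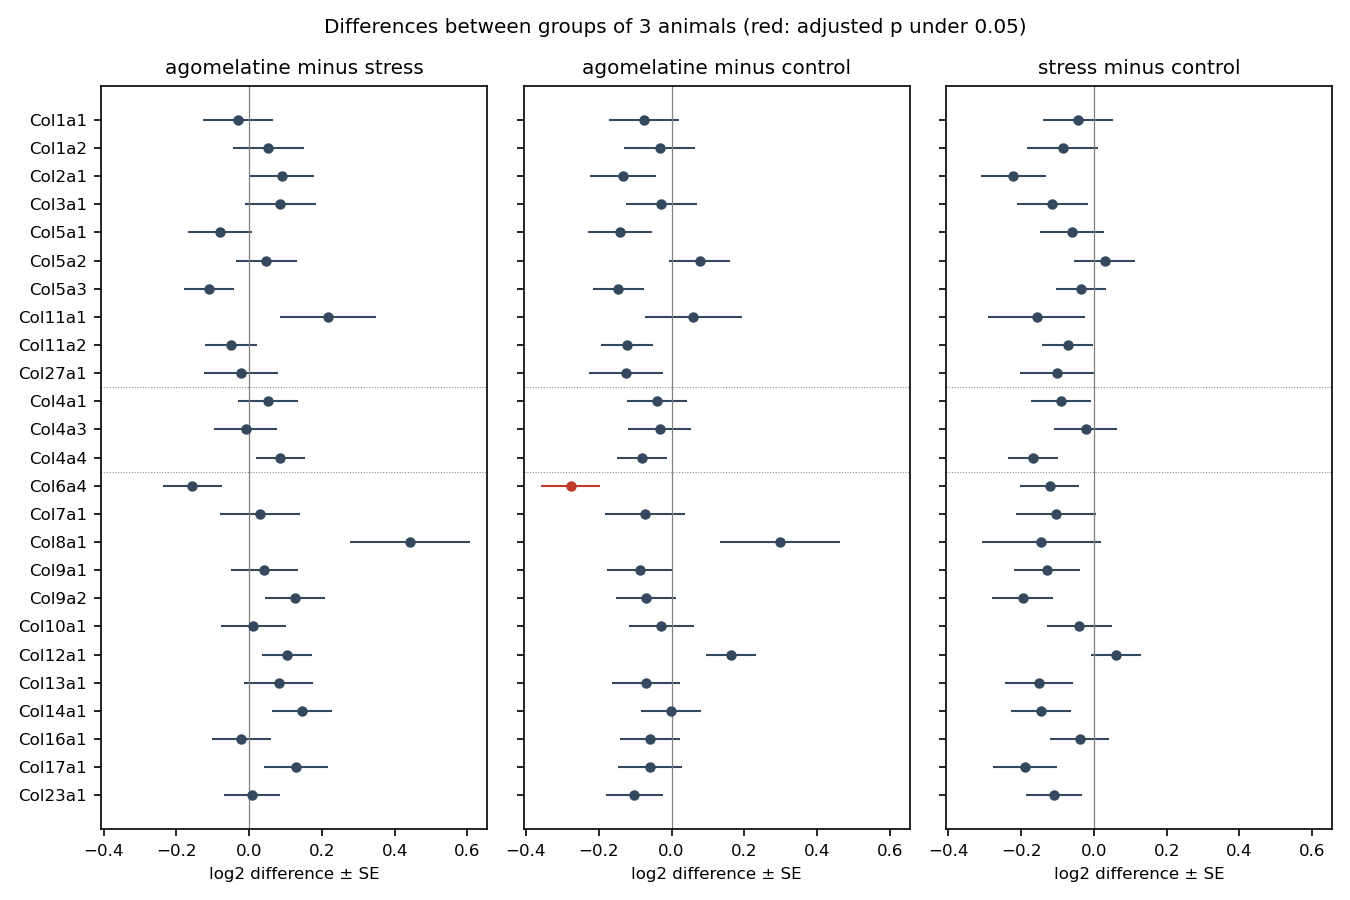
Points are log2 differences between groups of 3 animals for the 25 collagen genes, and bars are ± 1 SE from limma; dotted lines divide the fibrillar, basement membrane and other collagens. Stress minus control is below 0 for 23 of 25 genes with none past the threshold, Col8a1 lies at 0.44 for agomelatine minus stress, and Col6a4 is the 1 gene marked as changed, at -0.28 for agomelatine minus control.

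The repeat arrays of the controls give a measure of how far the same animals moved between hybridisations. Collagens were higher on the repeat than on the first array for 23 of 25 genes in control 1 (median difference 0.14) and for 23 of 25 in control 3 (median 0.25), but for 10 of 25 in control 2 (median -0.04). Over all tested genes the medians were -0.04, 0.01 and -0.02 in controls 1, 3 and 2. The largest single shift upward was 0.55 in control 3. The median SD between both arrays of an animal was 0.126 for the collagens, against 0.0987 for all tested genes, and in 19 of 25 collagens it exceeded the SD between animals of a group. Col1a2 read 8.81, 8.67 and 8.93 on the repeat arrays and 8.73, 8.62 and 8.79 on the first arrays of controls 1, 2 and 3.

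**Figure D3:**
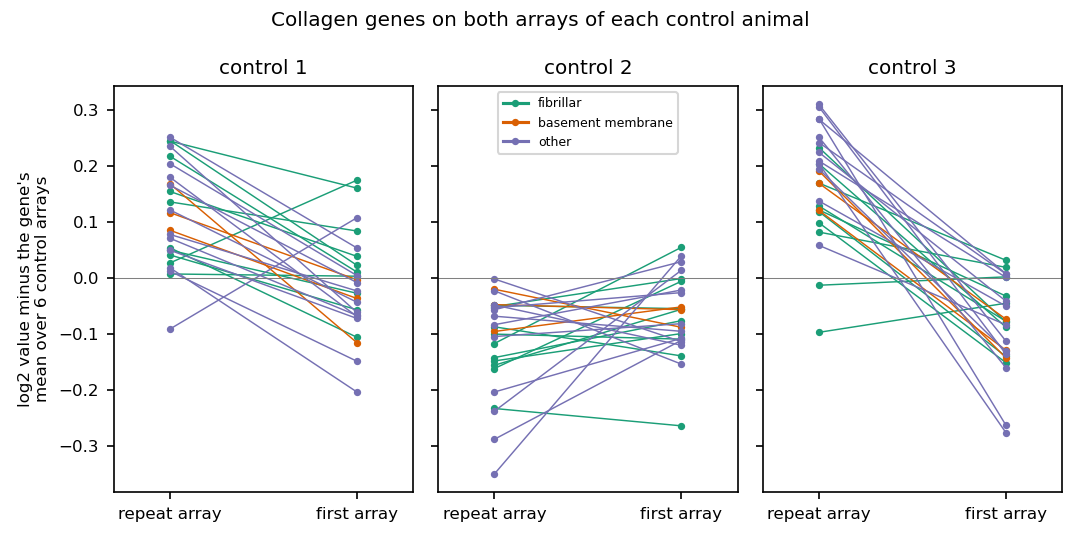
Lines join the repeat and the first array of 1 control animal for each of the 25 collagens, as log2 value minus the mean of the gene over the 6 control arrays; colours mark the 3 classes. In control 1 and control 3, 23 of 25 lines fall toward the first array, and in control 2 the directions are mixed.

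The size of the shift against control depended on these arrays. With only the first arrays as control, the median collagen difference of stress from control was -0.05 (19 of 25 below 0), and with only the repeat arrays it was -0.16 (24 of 25). For agomelatine against control the medians were 0.01 (10 of 25 below 0) and -0.13 (21 of 25). With only the first arrays the medians against control were -0.01 for fluoxetine (15 of 25 below 0), -0.02 for imipramine (16 of 25) and -0.003 for tianeptine (13 of 25). With only the repeat arrays they were -0.13 (22 of 25), -0.12 (23 of 25) and -0.10 (22 of 25). Without agomelatine 1 the comparison of agomelatine with control gave -0.01 with both arrays averaged, and without agomelatine 2 it gave -0.15. Whether control animals or their arrays set the direction was not tested.

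The collagens moved together from animal to animal. After group means were removed, the median correlation over the 300 pairs was 0.51, and 91.7% of pairs were above 0 (from -0.41 to 0.92). The mean was 0.47 for collagens and 0.022 over pairs of all tested genes, and all arrays share the normalisation. Outside the controls each animal had only its own array, so shifts of animal and array cannot be told apart. The median correlation was 0.50 between classes and 0.53 within a class. The cartilage collagen Col2a1 had a mean correlation of 0.59 with the others, as did Col1a1 at 0.59 and Col4a1 at 0.57. Col3a1 had the highest mean correlation (0.62), and Col8a1 was the exception at -0.07. The 2 type I chains correlated at 0.75, and Col1a2 with Col3a1 at 0.66.

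The genes most like Col1a2 over the 18 animals, outside the collagens and with group means removed, were Gjb2 (r 0.90), Vsig2 (0.87), Rep15 (0.86), Folr2 (0.85) and Cdhr1 (0.84). For Col4a1 they were Socs1 (0.94), Hmga1 (0.93), Klrg1 (0.92), Gipc3 (0.91) and Tmprss3 (0.91). Gjb2 encodes the gap junction protein connexin 26, and Socs1 encodes an inhibitor of cytokine signalling. None of these genes is in the marker lists of vessels or meninges used below.

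Whether the collagens followed meninges and vessels in these samples was set against scores of marker lists that hold no collagen. A score is the mean deviation of the listed genes from their means over the animals. The meningeal fibroblast score (22 tested genes) was 0.75 in agomelatine 1 and 0.55 in stress 1, and -0.21 to 0.17 in the other 16 animals. Choroid plexus epithelium, the lining that makes cerebrospinal fluid, was the most uneven (12 genes), at 3.01 in agomelatine 1, 0.63 in stress 1 and -0.33 to -0.13 in the others. The score over all 25 collagens ran from -0.09 in imipramine 2 to 0.16 in agomelatine 2. In agomelatine 1 it was -0.06 and in stress 1 0.00. The 2 animals with most signal of meningeal and choroid plexus markers did not have the highest score over all collagens. The type I chains were nevertheless high in stress 1, where Col1a1 (8.89) was the second and Col1a2 (8.82) the fourth of the 18 animals.

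The single markers Ogn and Ttr showed both animals clearly. Dcn was highest in agomelatine 1, but stress 3 and agomelatine 2 exceeded stress 1. Ogn, a small proteoglycan of meningeal fibroblasts, read 10.85, 8.43 and 8.36 with agomelatine, 9.83, 8.03 and 8.05 with stress alone and 7.79, 8.09 and 8.37 in controls. Dcn, the proteoglycan decorin that binds type I collagen, read 11.15, 10.21 and 9.08 with agomelatine, 9.90, 9.08 and 10.64 with stress alone and 9.29, 8.85 and 9.26 in controls. Ttr, the transthyretin gene of choroid plexus, read 14.01 in agomelatine 1 and 11.77 in stress 1, and at most 8.27 in the other animals. Col8a1 was the collagen whose highest animal, agomelatine 1, matched these markers, but in stress 1 it read 6.90. When the fit included the choroid plexus score, the difference of Col8a1 between agomelatine and stress was 0.23 (limma adjusted p 0.18). With the meningeal score in its place the difference was 0.37 (limma adjusted p 0.055).

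**Figure D4:**
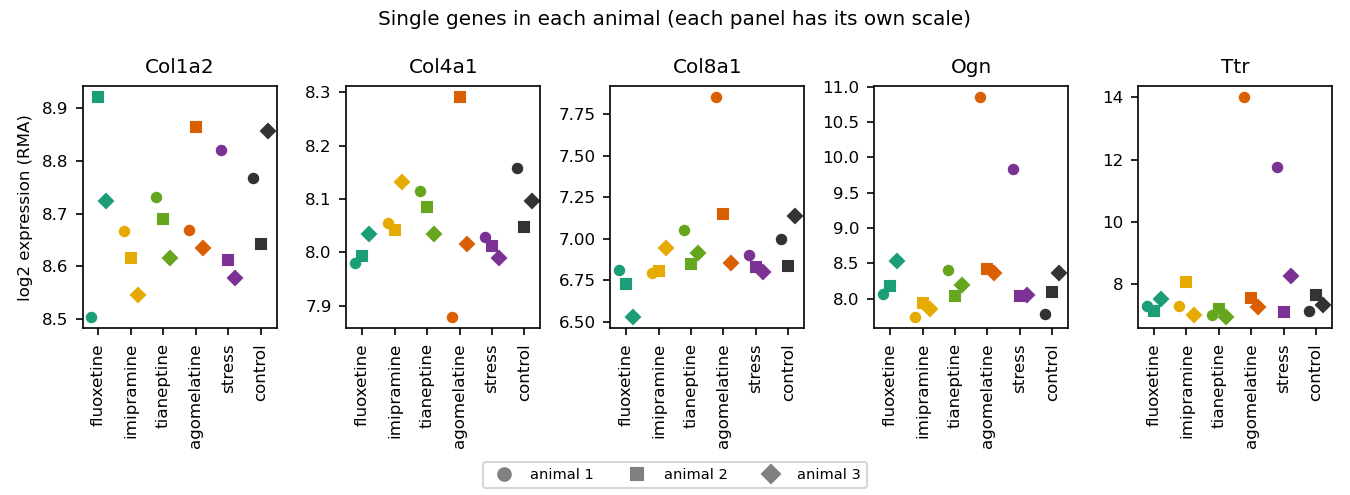
Log2 values of Col1a2, Col4a1 and Col8a1, of the meningeal marker Ogn and of the choroid plexus marker Ttr are plotted for the 18 animals by group, each panel with its own scale. Agomelatine 1 stands out for Ogn (10.85), Ttr (14.01) and Col8a1 (7.85), and is the lowest animal for Col4a1 (7.88).

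**Figure D5:**
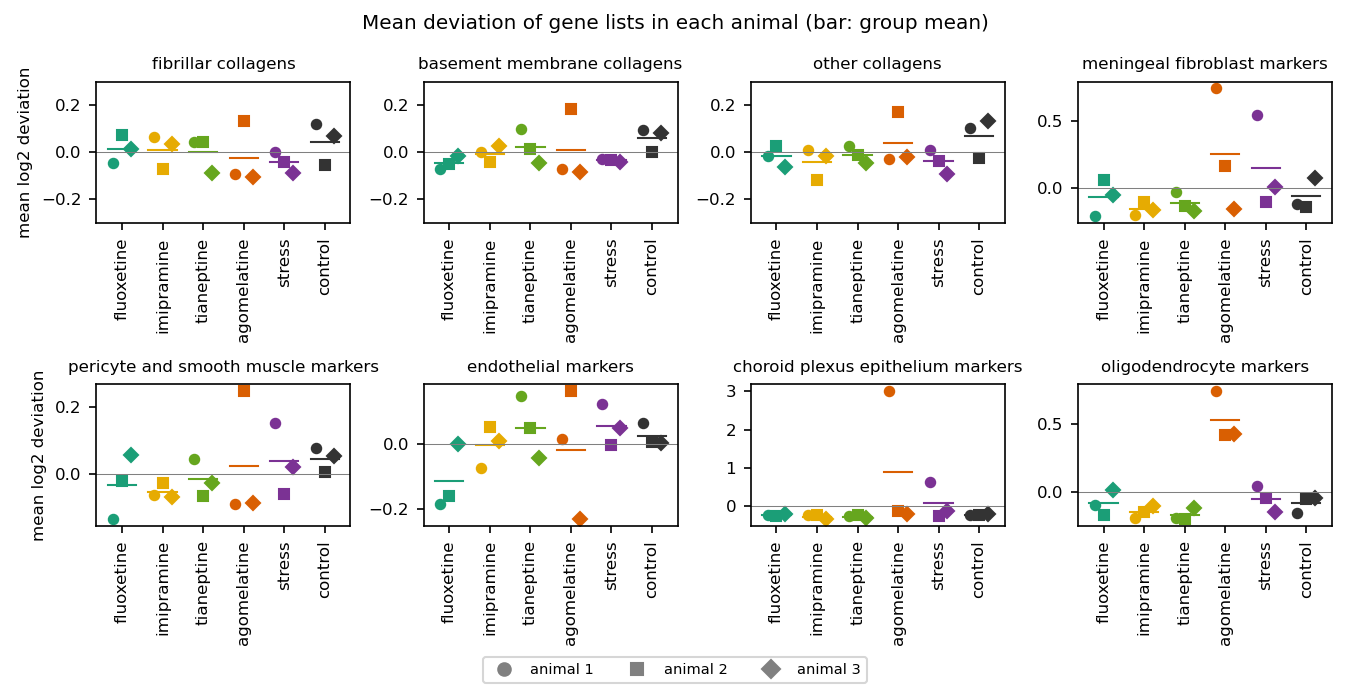
Each point is the mean log2 deviation of a gene list in 1 animal, and bars are group means; the 3 collagen panels share a scale and the marker panels have their own. Collagen scores stay within -0.12 and 0.18, whereas the choroid plexus score reaches 3.01 in agomelatine 1.

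Of 8 correlations computed between Col1a2 or Col4a1 and marker scores over the 18 animals, 2 passed by Pearson's r. The pericyte and smooth muscle score (14 genes) correlated with Col1a2 at r 0.68 (permutation p 0.0016, adjusted 0.012; rho 0.66, p 0.0039) and with Col4a1 at r 0.66 (permutation p 0.0042, adjusted 0.017; rho 0.46, p 0.059). Both rested in part on the animals at the ends, since without stress 1 and agomelatine 2 the values were 0.57 and 0.51 (adjusted permutation p 0.080 and 0.10). With group means removed over all 18 animals, r was 0.69 and 0.78 (adjusted permutation p 0.0056 and 0.0025). These permutations ran across groups although values were centred within groups, so these p-values may be too small. The meningeal score correlated with Col1a2 at r 0.41 (adjusted permutation p 0.14), and at 0.76 without stress 1 and agomelatine 1 (adjusted permutation p 0.0069). Its rho with Col1a2 over all 18 animals was 0.63 (permutation p 0.0068, adjusted 0.027). Without these 2 animals rho was 0.615 and did not pass (adjusted permutation p 0.10). The same score correlated with Col4a1 at -0.28 (adjusted permutation p 0.29). The endothelial score (21 genes) gave r 0.29 with Col1a2 and 0.51 with Col4a1 (adjusted permutation p 0.29 and 0.086), and the choroid plexus score 0.04 and -0.51 (adjusted permutation p 0.89 and 0.14). Without agomelatine 1 the choroid plexus score and Col4a1 correlated at -0.08. In a piece of tissue, fewer cells of a type and less RNA per cell cannot be told apart.

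Enzymes that modify and assemble collagen held genes that passed the test, all in the agomelatine group. Prolyl hydroxylation stabilises the collagen helix in the endoplasmic reticulum, and propeptides are cleaved off outside the cell. Of 25 tested genes for synthesis and cross-linking, 1 rose and 3 fell with agomelatine against stress, where 3.78% of all genes rose and 5.76% fell. Against control 1 rose and 2 fell, where 4.71% of all genes rose and 3.88% fell. P4ha2, a catalytic subunit of prolyl 4-hydroxylase, read 8.92, 8.63 and 8.58 with agomelatine, 9.13, 9.25 and 9.15 with stress alone and 9.13, 9.23 and 9.20 in controls. All 3 agomelatine animals lay below each of the other 15, of which the lowest read 8.96. It fell by 0.47 ± 0.08 against stress and by 0.47 ± 0.08 against control (limma adjusted p 0.0024 and 0.0020). It passed in 21 of 22 alternative settings against stress and in 22 of 22 against control.

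P3h3, a collagen prolyl 3-hydroxylase, read 10.21, 10.00 and 10.20 with agomelatine, 10.43, 10.41 and 10.34 with stress alone and 10.38, 10.52 and 10.39 in controls. It fell by 0.25 ± 0.06 and 0.29 ± 0.06, and agomelatine animals again lay below the other 15. The limma adjusted p was 0.020 against stress and 0.0098 against control, and the gene passed in 18 and 20 of 22 alternative settings. Crtap, the partner of prolyl 3-hydroxylase, read 7.92, 7.31 and 7.35 with agomelatine, 8.08, 7.80 and 7.96 with stress alone and 7.72, 7.66 and 7.75 in controls. Agomelatine 1 lay above all controls, and Crtap did not pass against control. It fell by 0.42 ± 0.13 against stress (limma adjusted p 0.045), and passed in 9 of 21 alternative settings. Adamts3, which cleaves the amino-terminal propeptide of fibrillar procollagens, read 10.18, 10.13 and 10.47 with agomelatine, 9.90, 10.04 and 9.67 with stress alone and 9.87, 10.09 and 9.88 in controls. It rose by 0.39 ± 0.10 against stress and by 0.31 ± 0.10 against control (limma adjusted p 0.016 and 0.049). The difference from control passed in 7 of 22 alternative settings.

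Among 14 tested partners of collagen in basement membranes, Agrn and Fbln1 fell with agomelatine against stress, and Agrn fell against control, where 5.76% and 3.88% of all genes fell. Agrn, the heparan sulfate proteoglycan agrin of vessel basement membranes and synapses, read 10.09, 10.01 and 10.03 with agomelatine, 10.33, 10.34 and 10.47 with stress alone and 10.30, 10.27 and 10.24 in controls. The differences were -0.34 ± 0.07 and -0.23 ± 0.07 (limma adjusted p 0.0061 and 0.043), and that against control passed in 7 of 22 alternative settings. Fbln1, a basement membrane glycoprotein, fell by 0.34 ± 0.09 against stress (limma adjusted p 0.024) and passed in 16 of 22 alternative settings. Among 8 collagen receptors, Itga11, a subunit of an integrin that binds fibrillar collagen, fell by 0.62 ± 0.18 against control (limma adjusted p 0.039), where 3.88% of all genes fell. The controls averaged higher than every other group, and 2 of them, at 9.01 and 8.86, exceeded the other 16 animals. The group means were 8.37 with fluoxetine, 8.37 with imipramine, 8.04 with tianeptine, 8.14 with agomelatine, 8.31 with stress alone and 8.76 in controls. Itga11 did not pass between agomelatine and stress. Of 9 genes for breakdown of collagen 0 passed in any comparison by limma. In each comparison 0 or 1 had an unadjusted p under 0.05, beside 3.88% to 25.5% of all genes. None of the genes of these 4 lists passed for the other drugs or for stress against control, where at most 0.0168% of all genes passed.

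Other cell types moved with the agomelatine group as well. All 13 oligodendrocyte markers rose in both comparisons, beside 3.78% of all genes against stress and 4.71% against control, and the oligodendrocyte score was 0.74, 0.42 and 0.43 with agomelatine and at most 0.04 in the other 15 animals. The score of dentate granule neurons (4 genes) was -0.36, -0.34 and -0.25 with agomelatine and -0.04 to 0.16 in the others. Of these 4 genes, C1ql2 and Pdzd2 fell with agomelatine against stress, by 0.55 and 0.40 (limma adjusted p 0.00025 and 0.0080), and C1ql2 and Prox1 fell against control, by 0.70 and 0.44 (limma adjusted p 1.65e-05 and 0.0058). Prox1 differed from stress by -0.24 (limma adjusted p 0.097). Over all genes 5.76% fell against stress and 3.88% against control. The granule neuron markers Prox1, C1ql2 and Calb1 read 10.48 to 12.06 over all animals. Among 21 endothelial markers, Cldn5, Slc2a1 and Egfl7 fell with agomelatine against stress, by 0.36, 0.30 and 0.40 (limma adjusted p 0.011, 0.016 and 0.036). The list went both ways, with 10 of 21 above 0 and a median of -0.04. Against control 0 of 21 passed, with 4 at an unadjusted p under 0.05 beside 24.2% of all genes. Among 11 astrocyte markers, Aldh1l1 and Slc4a4 fell with agomelatine against stress, by 0.24 and 0.22 (limma adjusted p 0.021 and 0.015), and Slc4a4 fell by 0.20 against control (limma adjusted p 0.024). Of 12 choroid plexus markers, Enpp2, a secreted lysophospholipase, rose with agomelatine against control by 1.52 (limma adjusted p 0.036). Against stress 0 of these markers passed, with 4 at an unadjusted p under 0.05 beside 25.5% of all genes. The choroid plexus score itself was 3.01, -0.13 and -0.19 in agomelatine 1, 2 and 3. Of 22 meningeal and 14 pericyte and smooth muscle markers, 0 passed by limma in either agomelatine comparison. At an unadjusted p under 0.05 there were 3 and 2 against stress and 6 and 1 against control. Over all genes 25.5% reached this level against stress and 24.2% against control. The part of these shifts in the values of P4ha2, P3h3, Adamts3 and Agrn was not tested.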

How the data were processed

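For each probe set the authors deposited a log2 value. The submitters' processing notes name RMA and Affymetrix Expression Console 1.2. RNA was extracted with a column kit and DNase, per the labels' protocols. RMA shrinks small differences at low signal. Of 29214 probe sets, 15310 carried 1 gene symbol in the platform annotation. All 25 collagen genes matched the RefSeq gene table by gene number. No genome build is named for the array in these sources.

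Control arrays were averaged per animal. Genes with a mean at or above the 25th percentile of all probe sets (6.62) were tested. All 18 animals entered the fit of group means (limma 3.58.1, R 4.3.3), with a variance trend and 12 residual degrees of freedom. Of 9 comparisons, each was adjusted over 11940 genes by the Benjamini-Hochberg method, with calls under 0.05. Arrays give no read depth, and the number of animals limits precision. The fit was tested on simulated data. Correlations used 100000 permutations across groups (not within them), two-sided, with Benjamini-Hochberg adjustment over 8 relations.

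The members, lists (collagen synthesis, receptors, breakdown, basement membrane partners, and markers of meningeal fibroblasts, endothelium, pericytes, choroid plexus, oligodendrocytes, astrocytes and granule neurons) and tests were chosen with earlier results of these data known. Named were a fixed panel of collagens, every collagen called, the 3 of smallest p per comparison, the extremes of each class by mean, the 5 genes most like Col1a2 and Col4a1, defining markers and up to 4 called members of each list. Same-numbered animals of different groups correlated at -0.30 to 0.29 (median -0.02), with 10 of 45 pairs above 0.1. The main fit did not pair animals by number. Whether same-numbered animals shared a round of work was not tested. Alternatives covered control arrays, filters, scaling, variance model, covariates, probe set choice, threshold, replicate block and animals left out. The settings that tested all probe sets with 1 symbol, or took the percentile over them, were chosen after seeing the data.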

Additional observations from a re-analysis of the deposited data

How the results depend on the processing

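The count of collagens called moved in 3 results. For agomelatine against stress it was 0, and 1 (Col8a1) at an adjusted p under 0.1, with a range of 0 to 1 when single animals were left out (1 without agomelatine 3). For agomelatine against control it was 1 (Col6a4), and 0 with the filter at the 50th percentile (where Col6a4 was not tested), array weights, equal array medians, the mean of the probe sets of a gene, the meningeal or the choroid plexus score as covariate, or only the 2 groups compared, with a range of 0 to 1 when single animals were left out. It was 0 without agomelatine 1 and without each control animal in turn, and without agomelatine 3 the gene called was Col8a1. With only the first control arrays the count was 1, but the gene was Col12a1. For the F test the range was 0 to 1 (Col8a1 without agomelatine 3). With the replicate block, which pairs animals by number, the count of agomelatine against control was 0 and that of all genes 896 in place of 1025, and no other collagen count moved. Of 241 recomputed counts, 226 stayed the same in number, most of them at 0, also where the gene called was another. Of 814 recomputed values of single genes, 81 no longer passed and 2 newly passed. Most of the 814 belong to results that had not passed in the main fit, so they could not stop passing. The cause of these changes was not tested.

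Of 160 recomputed correlations, 146 kept sign and call. Without the 2 animals farthest from the median score, r was 0.76 for Col1a2 with the meningeal score, 0.57 and 0.51 for Col1a2 and Col4a1 with the pericyte score, 0.44 for Col4a1 with the meningeal and 0.16 for Col4a1 with the choroid plexus score. With group means removed r was -0.029 for Col1a2 and -0.65 for Col4a1 with the choroid plexus score. The latter passed (adjusted permutation p 0.0497), but permutations ran across groups after centring within them, so this p-value may be too small. With single animals left out, r ran from -0.016 to 0.34 for Col1a2 with choroid plexus, 0.14 to 0.58 with endothelial, 0.32 to 0.64 with meningeal and 0.63 to 0.82 with pericyte scores. For Col4a1 it ran from -0.53 to 0.15 with the meningeal, 0.37 to 0.61 with the endothelial, 0.39 to 0.76 with the pericyte and -0.65 to -0.08 with the choroid plexus score. With 3 animals per group and a median SD of 0.105 between animals, differences of about 0.1 among the collagens lie near the standard errors. Whether the levels of low probe sets reach above background could not be read, since the deposited values carry no detection call.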
